A study of Mus musculus with 93 samples.

Results

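Oocytes of wild type mice aged 6 months were set against oocytes of wild type mice aged 7 weeks, with 11 libraries at 6 months and 5 at 7 weeks. These 16 libraries are all the wild type oocyte libraries of both ages among the 93 samples of the series, and they were chosen by their labels. The series holds ovarian granulosa cells and oocytes from wild type mice and from mice lacking Esr2, the gene for estrogen receptor beta, at 4 weeks, 7 weeks and 6 months. The RNA was amplified by Smart-seq2, which copies whole transcripts from tiny inputs, and the counts of each age came in a table of their own. The labels give the genotype, the age and the sample number, and no strain, hormone treatment, oocyte stage, animal or number of oocytes per library. For side-by-side values there were also Esr2 knockout oocytes, with 4 libraries at 6 months and 12 at 7 weeks, as well as 12 wild type libraries at 4 weeks. A 7-week knockout library has a name that joins the numbers 4 and 5, beside another numbered 5. Whether they share material is not stated, and both were counted as separate libraries. Since each age is its own table, age and anything that differed between the tables cannot be told apart in any comparison here. With no animals or cultures named, each p-value speaks only of library-to-library spread, part of which may be technical.

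An oocyte grows inside its follicle for weeks while it stores messenger RNA and protein for the meiotic divisions and the first days of the embryo. During growth it secretes the zona pellucida, the glycoprotein coat that sperm must cross, and growth factors that act on the surrounding granulosa cells. A fully grown oocyte largely stops transcribing, so its RNA then depends on storage, translation and decay. In mice, 7 weeks is shortly after puberty and 6 months is reproductive adulthood before fertility declines.

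Library totals ranged between 2211690 and 7172700 estimated counts at 6 months and between 2278359 and 5209449 at 7 weeks, and 13003 to 14898 genes had a count at 6 months, against 12855 to 14508 at 7 weeks. Neither measure differed beyond the spread between libraries (exact two-sided permutation test of group means, p = 0.147 for log2 totals and 0.854 for genes). Esr2 itself had 33.2 to 134 CPM at 6 months with a median of 85.4, against 54.1, 57.5, 66.6, 56.8 and 82.5 CPM at 7 weeks (CPM, counts scaled to a common library size, here after TMM scaling). The groups overlapped, and the log2 fold change of 0.31 ± 0.25 (SE) did not pass the test (edgeR quasi-likelihood test, adjusted p = 0.393). All 14 oocyte markers, among them Zp3, Gdf9 and Nlrp5, were measured in both ages. Their summed level, in CPM without TMM scaling like the other marker sums here, was 54609 ± 11659 CPM at 6 months (SD, n = 11) and 31296 ± 9571 CPM at 7 weeks (SD, n = 5), higher by 0.84 on the log2 scale (exact permutation p = 0.00183, adjusted p = 0.011 over 12 library measures). The groups overlapped: 6-month samples 2 and 5, at 31501 and 36898 CPM, lay within the 7-week range of 16127 to 39746 CPM.

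Markers of other cells were present at both ages. Of 16 granulosa markers, 7 were in both tables. They summed to 1111 ± 283 CPM at 6 months (SD, n = 11) and 782 ± 280 CPM at 7 weeks (SD, n = 5), a log2 difference of 0.53 that did not pass (exact permutation p = 0.043, adjusted p = 0.0861). Most of that sum was Serpine2, with means of 1091 CPM at 6 months and 544 CPM at 7 weeks after TMM scaling. The markers Inha, Inhba, Kitl and Cyp11a1, 4 of the 7, summed to 19.7 ± 32.8 CPM at 6 months (SD, n = 11; 1.57 to 86.6), against 61.9, 345, 9.18, 65.8 and 92.2 CPM at 7 weeks. That sum was lower at 6 months by 3.21 on the log2 scale (exact permutation p = 0.0108, adjusted p = 0.043). These markers were picked after the levels were seen, so neither p-value can stand as a test. Their direction is opposite to that of the sum of the whole list. The median log2 fold change of the 7 tested members was -0.63, with 1 higher and 1 lower (edgeR, adjusted p under 0.05). The theca and stroma markers in both tables, 2 of 14, summed to 25.9 CPM at 6 months and 16.2 CPM at 7 weeks, and the immune markers, 4 of 14, to 34.3 and 22.6 CPM in the same order of ages (adjusted p = 0.0861 for each). Endothelial and surface epithelium markers summed to 80.5 and 161 CPM at 6 months and to 69.6 and 138 CPM at 7 weeks (adjusted p = 0.585 for each), and no erythroid marker was in both tables. In bulk libraries, fewer cells of a type and less RNA per cell cannot be told apart.

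Of 11979 genes tested, 2640 differed between the ages at an adjusted p under 0.05, which is 22.0% of those tested. At 6 months 1297 genes (10.8%) were higher and 1343 (11.2%) were lower, and 1631 of the 2640 differed by at least 2-fold. The median log2 fold change of all tested genes was 0.06. All 11 libraries at 6 months lay above all 5 at 7 weeks for 299 genes (2.5% of those tested) and below them for 227 (1.89%). The 7-week library named sample 1, which had the fewest genes with a count, moved the number of calls most among those of its age: without it 1502 genes passed. With the summed level of Inha, Inhba, Kitl and Cyp11a1 as a covariate, an alternative added after the data were seen, 177 genes passed, 137 higher and 40 lower. Of the 105 genes named below that passed, 40 kept their call with that covariate and 65 did not; whether granulosa RNA has a part in them was not tested further.

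The difference between the ages followed transcript length. Each library was given a length tilt, the Spearman correlation across genes between the longest annotated transcript of a gene and the library's log2 CPM minus the mean of the 16 libraries. The tilt at 6 months was -0.18 ± 0.22 (SD, n = 11), with a lowest value of -0.48, a median of -0.24 and a highest of 0.20. At 7 weeks it was 0.39, 0.23, 0.46, 0.18 and 0.30. Long transcripts were therefore relatively scarcer in most 6-month libraries and relatively richer in all 5 of the 7-week libraries, and the ranges overlapped only through 6-month sample 5, at 0.20; 6-month sample 2, at 0.18, lay just under the lowest 7-week library. The means differed by -0.49 (exact two-sided permutation test over libraries, p = 0.000458, adjusted p = 0.00549).

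**Figure D1:**
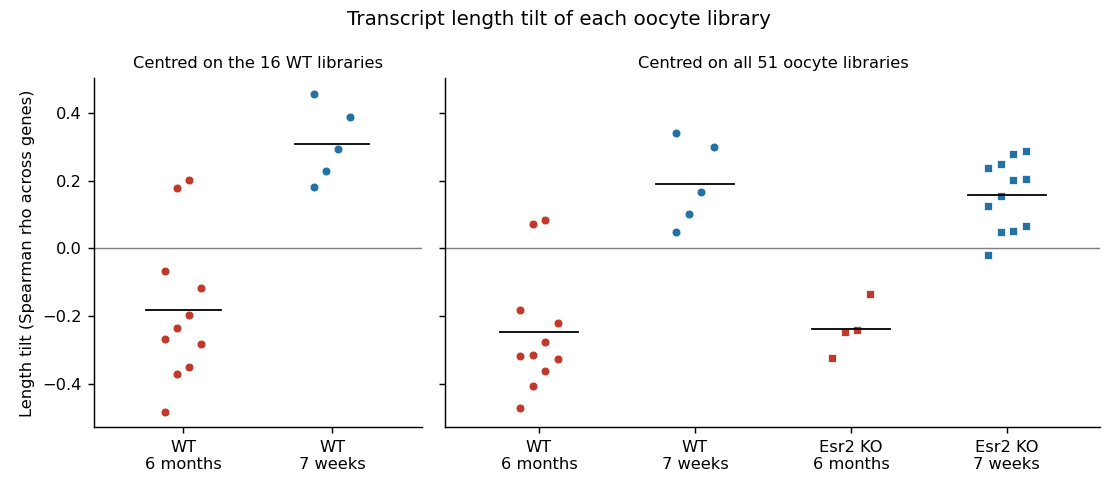
Length tilt of each oocyte library (y axis, Spearman rho across genes, no unit), for wild type libraries centred on their own 16 (left) and for wild type and Esr2 knockout libraries centred on all 51 oocyte libraries (right). Points are libraries and bars are group means. In both genotypes the 6-month libraries mostly lie below 0 and the 7-week libraries above it.

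In 10 equal bins of transcript length, the median log2 fold change was 0.62 in the shortest bin (up to 1008 bases), 0.13 in bin 5 and -0.68 in the longest (6801 bases and over). In the shortest bin 19.8% of genes were higher and 1.68% lower, while in the longest 3.36% were higher and 35.3% lower. Genes that were higher at 6 months had a median length of 2064 bases, those that were lower 5287.5 bases and all tested genes 3152 bases. Across 11887 genes with a length, the fold change correlated with length at a Spearman rho of -0.45 and with GC content at -0.11; genes are not independent replicates, and these values are descriptions. The knockout libraries, which share no library with the wild type ones but come in the same tables, gave -0.44 for length. Their own tilts, centred on all 51 oocyte libraries, had a median of -0.24 at 6 months and 0.18 at 7 weeks, and the wild type ones had -0.31 at 6 months and 0.17 at 7 weeks. Wild type oocytes of 4 weeks lay between, with a median of -0.02. In granulosa cells from the matching tables the wild type medians were -0.06 at 6 months and 0.01 at 7 weeks, and the knockout medians were -0.23 at 6 months and 0.19 at 7 weeks.

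**Figure D2:**
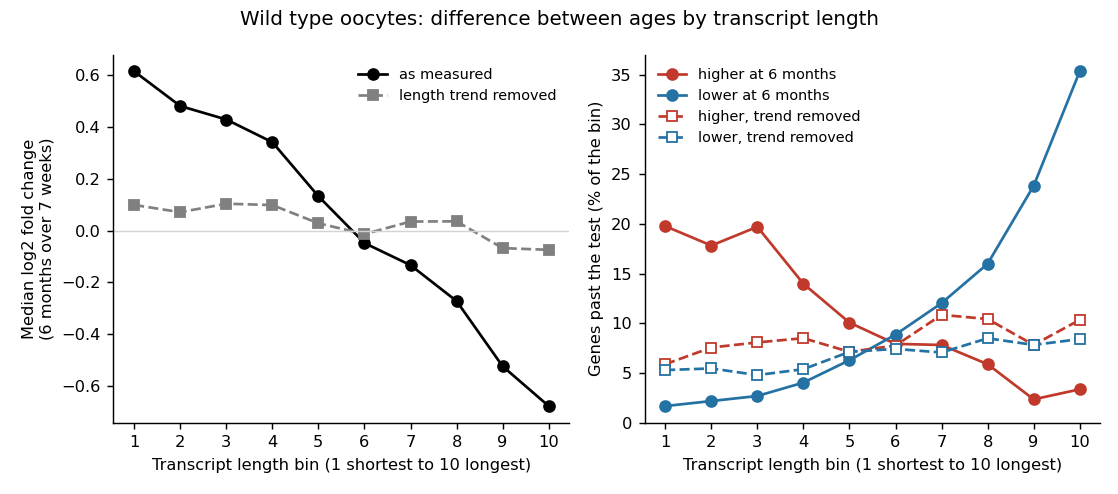
Left, median log2 fold change of 6 months over 7 weeks (y axis) in 10 bins of transcript length (x axis), as measured and with the length trend removed from each library. Right, genes past the test as a percentage of each bin. As measured, the medians run between 0.62 and -0.68; with the trend removed they lie within 0.11 of 0 in every bin.

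Because the trend is a property of whole libraries, it was also removed, by subtracting from each library a smooth curve of its deviation against transcript length. With the trend removed 1808 genes passed (15.1%), 1008 higher (8.41%) and 800 lower (6.68%), and the correlation with length was -0.03. Of these, 1428 also passed as measured, 767 higher in both fits and 661 lower in both, and no gene that passed in both changed sign. The median lengths of higher and lower genes were then 3492 and 3601 bases. Without 7-week sample 1 the number was 1021, and without 6-month sample 2, the shallowest library, it was 2724. The removal takes away everything that runs along length, whatever its source. Values below are as measured unless the removal is named, and the value after removal is given where it moved a named gene by over 1.5 times or changed its call. Counts for each list are read against the shares of all tested genes. Those were 10.8% higher and 11.2% lower as measured, and 8.41% and 6.68% after removal.

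The genes with the smallest p among those higher at 6 months were led by 2 ubiquitin-conjugating enzymes. Ube2t, which acts in the Fanconi anaemia pathway of DNA crosslink repair, had 712 to 1272 CPM at 6 months with a median of 900, against 175, 121, 193, 190 and 307 CPM at 7 weeks. The groups did not overlap, and the log2 fold change was 2.28 ± 0.24 (SE; edgeR adjusted p = 1.95e-05), the same to 2 decimals with the length trend removed. Ube2c, the enzyme that works with the anaphase-promoting complex, had 138 to 311 CPM (median 208) at 6 months, against 39.1, 50.2, 73.5, 50.9 and 62.0 CPM at 7 weeks. It was higher by 1.98 ± 0.22, and by 1.69 ± 0.19 with the trend removed. Idua, a lysosomal enzyme that degrades glycosaminoglycans, had 16.7 to 41.6 CPM at 6 months (median 26.4), against 2.42, 0.65, 4.29, 2.58 and 3.03 CPM at 7 weeks, a log2 fold change of 3.36 ± 0.39.

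Other leading genes that were higher had roles in several compartments. Cnih4, a cargo receptor of the endoplasmic reticulum, had 87.3 to 155 CPM at 6 months against 15.1 to 39.8 CPM at 7 weeks, with a log2 fold change of 2.12 ± 0.25. H3f3a, which encodes the histone H3 variant deposited outside replication, had 255 to 590 CPM at 6 months against 56.5 to 140 CPM at 7 weeks, a log2 fold change of 2.14 ± 0.25; near-identical gene copies make its counts uncertain. Dad1, a subunit of the oligosaccharyltransferase of the endoplasmic reticulum, was 1.40 ± 0.20 higher and 1.47 ± 0.19 higher with the trend removed. Dusp10, a phosphatase of stress-activated MAP kinases, Dpys, an enzyme of pyrimidine breakdown, Gstm5, a glutathione transferase, Sdhaf4, an assembly factor of succinate dehydrogenase, and Tm2d1 were higher by 1.99, 2.93, 2.21, 1.88 and 2.52 on the log2 scale. For each of these genes all 6-month libraries lay above all 7-week libraries, and each passed the test with the trend removed. Under every alternative that was followed for single genes, fits with a block included, 11 named genes kept their call. They were Cnih4, Dpys, Dusp10, Gstm5, H3f3a, Idua, Ndufa4, Sdhd, Tm2d1, Ube2c and Ube2t. Fits that left out a library with the length trend also removed were not among those alternatives.

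**Figure D3:**
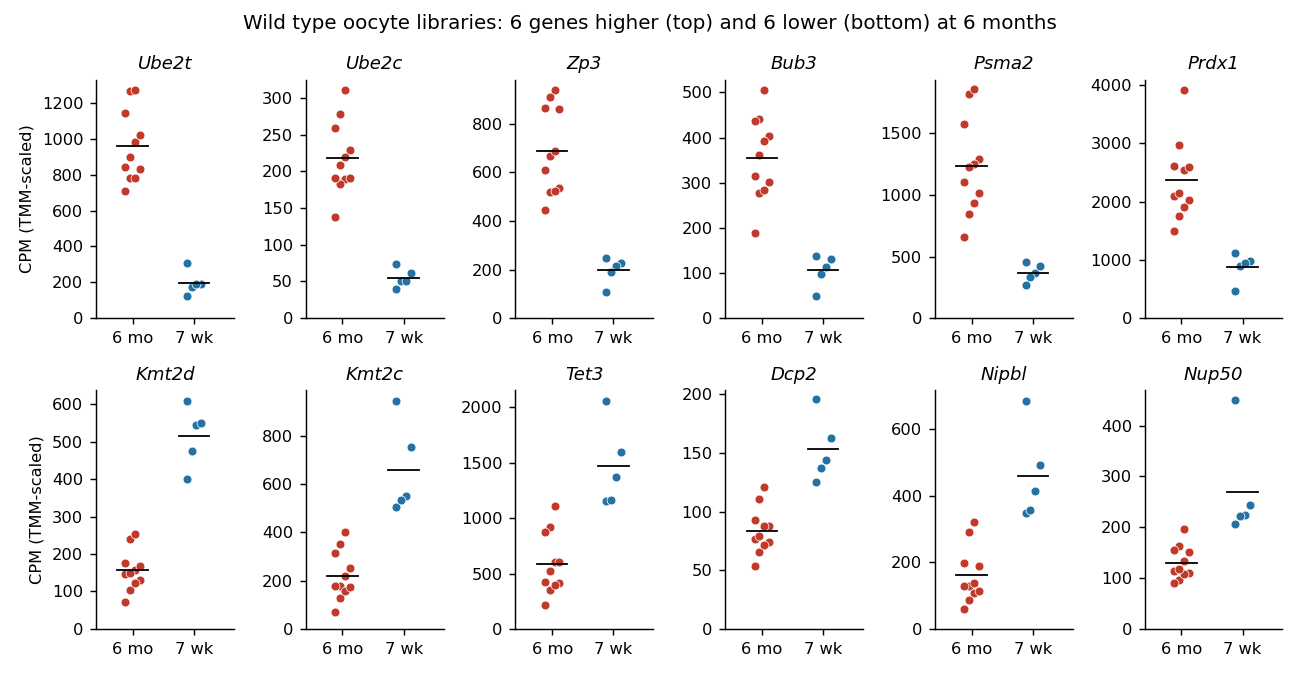
CPM after TMM scaling (y axis, each panel starting at 0) in the 11 libraries of 6 months (left) and the 5 of 7 weeks (right) for 6 genes that were higher (top) and 6 that were lower (bottom) at 6 months. Points are libraries and bars are group means. The genes were picked for display, and in none of the 12 panels do the groups overlap. Of all tested genes, 2.5% lay above and 1.89% below without overlap.

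The genes with the smallest p among those lower at 6 months included several regulators of chromatin. Kmt2d, a histone H3 lysine methyltransferase that acts at enhancers, had 70.9 to 254 CPM at 6 months with a median of 149, against 545, 400, 550, 474 and 610 CPM at 7 weeks. The groups did not overlap, and the log2 fold change was -1.72 ± 0.23 (edgeR adjusted p = 7.71e-05) as measured and -1.03 ± 0.22 with the length trend removed, with a longest Kmt2d transcript of 19823 bases. Srcap, the remodeller that deposits the histone variant H2A.Z, had 0 to 24.6 CPM at 6 months (median 12.3), against 85.6, 62.9, 97.8, 57.0 and 87.5 CPM at 7 weeks. Its log2 fold change was -2.58 ± 0.40, and -1.86 ± 0.39 with the trend removed. Baz2a, of a nucleolar remodelling complex, and Smarcc2, a core subunit of the BAF remodeller, fell by 1.62 and 1.87 on the log2 scale, and by 0.96 and 1.53 with the trend removed, with 7-week sample 1 far above the other 4 libraries of that age in each.

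Acvr2b, a receptor for activins, had 2.55 to 16.6 CPM at 6 months (median 6.48), against 62.5, 27.8, 45.0, 32.6 and 25.3 CPM at 7 weeks. Its log2 fold change of -2.33 ± 0.36 was -2.34 ± 0.36 with the trend removed, and no library overlapped. Pptc7, a mitochondrial phosphatase, had 47.1 to 132 CPM at 6 months (median 77.1), against 293, 184, 213, 194 and 186 CPM at 7 weeks, and its log2 fold change was -1.38 ± 0.21. Tnrc6b, a scaffold of microRNA silencing, Hectd4, a HECT-domain protein, Jade2, a PHD-finger protein, Bcorl1, a transcriptional corepressor, Atxn1l, an ataxin relative, and Ttn, the giant protein of muscle sarcomeres, fell by 1.80, 1.91, 1.30, 1.55, 1.90 and 1.90. With the trend removed these 6 fell by 1.12, 1.14, 0.76, 0.96, 1.34 and 1.81 in the same order, and all passed. Akt1s1, an inhibitor within the mTORC1 complex, fell by 1.56 as measured and 1.85 with the trend removed. H1f0, a linker histone, fell by 0.88 and 1.17 in the same order, Vps37b, of the ESCRT sorting machinery, by 1.50 and 1.71, Col4a3bp, a ceramide transfer protein, by 1.49 and 1.12, and Midn by 1.19 and 1.07.

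Genes of the egg coat and of oocyte secretion were higher at 6 months. Of 11 on the list of zona pellucida genes and oocyte growth factors, 7 were higher and 0 lower (edgeR; 1 was lower at an unadjusted p under 0.05), and the median log2 fold change was 1.16, against 0.06 over all genes tested. With the length trend removed 6 were higher and the median was 0.78. Zp3, the zona protein that takes part in sperm binding, had 446 to 939 CPM at 6 months with a median of 667, against 228, 214, 248, 106 and 192 CPM at 7 weeks. No library overlapped, and its log2 fold change was 1.80 ± 0.24 (edgeR adjusted p = 0.000111) as measured and 1.32 ± 0.25 with the trend removed. Zp1 and Zp2 were higher by 1.23 ± 0.33 and 0.82 ± 0.20, with overlapping groups.

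Oosp1, a secreted protein of the oocyte, had 3152 to 8438 CPM at 6 months (median 4506), against 1381, 2514, 2304, 2313 and 2635 CPM at 7 weeks, and its log2 fold change was 1.29 ± 0.26. The related genes Oosp2 and Oosp3 were higher by 1.38 ± 0.24 and 1.33 ± 0.26, also with no overlap. After removal Oosp1, Oosp2 and Oosp3 were higher by 0.78, 0.85 and 0.78, and all passed. Gdf9, a growth factor that acts on granulosa cells, averaged 18723 ± 8726 CPM at 6 months and 8381 ± 3078 CPM at 7 weeks (SD, n = 11 and 5). Its log2 fold change of 1.16 ± 0.35 passed as measured (adjusted p = 0.0206) and did not pass with the trend removed (0.78 ± 0.29, adjusted p = 0.0672). It also did not pass when 7-week sample 1, 2 or 4 was left out.

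The upstream sequences of a pair of these genes and of a pair of the lower chromatin genes are shown to set the letters of both groups side by side. Zp3 lies on chromosome 5 (135980099 to 135988624, forward strand), Oosp1 on chromosome 19 (11667460 to 11691150, reverse), Kmt2d on chromosome 15 (98831669 to 98871204, reverse) and Kmt2c on chromosome 5 (25271798 to 25498783, reverse), in GENCODE vM21 coordinates of GRCm38. The 250 bases before the RefSeq start (build GRCm38.p6) are given 5′ to 3′ on the strand of the gene, at chr5:135979855-135980104, chr19:11691052-11691301, chr15:98871206-98871455 and chr5:25498784-25499033. Capitals mark the E-box CANNTG, which is its own reverse complement and which the oocyte factor FIGLA is known to bind upstream of zona genes, and the GC box GGGCGG on either strand (GGGCGG or CCGCCC), including copies that overlap.
Zp3: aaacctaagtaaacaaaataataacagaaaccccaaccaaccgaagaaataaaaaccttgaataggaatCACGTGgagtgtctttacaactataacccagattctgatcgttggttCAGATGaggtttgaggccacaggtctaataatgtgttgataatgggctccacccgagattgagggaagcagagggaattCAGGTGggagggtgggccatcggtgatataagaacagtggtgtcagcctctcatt
Oosp1: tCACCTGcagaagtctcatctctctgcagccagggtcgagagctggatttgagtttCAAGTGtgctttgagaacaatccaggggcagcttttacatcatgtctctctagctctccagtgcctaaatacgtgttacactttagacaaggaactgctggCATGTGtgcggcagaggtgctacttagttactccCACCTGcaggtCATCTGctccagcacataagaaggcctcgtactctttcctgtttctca
Kmt2d: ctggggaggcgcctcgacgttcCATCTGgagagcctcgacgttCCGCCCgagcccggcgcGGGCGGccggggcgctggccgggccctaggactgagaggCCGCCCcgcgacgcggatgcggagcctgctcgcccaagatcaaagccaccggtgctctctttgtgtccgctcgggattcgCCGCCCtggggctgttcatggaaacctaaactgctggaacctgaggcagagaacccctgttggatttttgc
Kmt2c: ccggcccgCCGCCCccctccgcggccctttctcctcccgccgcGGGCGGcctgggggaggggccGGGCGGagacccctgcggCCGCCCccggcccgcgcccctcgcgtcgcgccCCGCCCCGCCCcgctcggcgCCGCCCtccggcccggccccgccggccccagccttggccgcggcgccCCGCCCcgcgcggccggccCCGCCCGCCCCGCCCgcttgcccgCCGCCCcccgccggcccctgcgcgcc
The Zp3 window holds 3 E-boxes and 0 GC boxes, the Oosp1 window 5 and 0, the Kmt2d window 1 and 4, and the Kmt2c window 0 and 12. The RefSeq starts of Zp3 and Oosp1 lie inside the genes as GENCODE places them, so the ends of these windows overlap the genes. In Oosp1 the E-boxes from CATGTG on lie in that overlap. Of all 32851 upstream windows in the RefSeq set, 66.2% hold an E-box and 32.7% a GC box, so that neither motif is rare. Among windows of tested genes 58.9% hold an E-box and 55.0% a GC box. For genes that were higher the shares were 61.9% and 47.7%, and for genes that were lower 51% and 65.5%. Over the 7 windows of the zona and growth factor list they were 71.4% and 42.9%. Over the 49 windows of the chromatin list they were 61.2% and 73.5%, so few E-boxes in the Kmt2d and Kmt2c windows do not stand for that list. These matches are a description of letters, not of binding.

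Among 14 oocyte transcription factors 6 were higher and 3 lower, with a median of 0.65 on the log2 scale. With the trend removed 1 was higher and the median was 0.18. Nobox, a homeobox factor needed for follicle growth, had 194 to 496 CPM at 6 months (median 316), against 156, 156, 185, 187 and 223 CPM at 7 weeks, and rose by 0.83 ± 0.22 on the log2 scale; with the trend removed the value was 0.47 ± 0.17 (adjusted p = 0.063). Obox1, Obox2 and Obox5, homeobox genes of 1 cluster whose similar copies may share reads, rose by 1.32, 1.12 and 0.94, and Tbpl2, the TATA-binding protein relative of oocytes, by 1.28. Of these only Obox1 passed with the trend removed (0.92 ± 0.30), where Obox2, Obox5 and Tbpl2 were at 0.72, 0.58 and 0.88. Obox2 and Obox5 also missed the test without 7-week sample 1, 2 or 3, Obox5 without 6-month sample 4 or 10, and Tbpl2 without 7-week sample 1 or 3. Foxo3, which holds primordial follicles dormant, fell by 0.90 ± 0.26 as measured, with a value of -0.41 ± 0.18 (adjusted p = 0.123) after removal.

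Of 22 maternal effect genes, whose stored products the embryo needs, 5 were higher (22.7%) and 2 lower (9.09%). With the trend removed 3 were higher (13.6%) and 2 lower (9.09%). As measured, the share of lower genes was under the 11.2% of all tested genes. Tle6, a member of the subcortical maternal complex, had 476 to 1192 CPM at 6 months (median 681), against 208, 261, 342, 185 and 304 CPM at 7 weeks. It was higher by 1.51 ± 0.25 with no overlap, and by 1.19 ± 0.22 with the trend removed. H1f8, the oocyte linker histone, averaged 22661 ± 9000 CPM at 6 months and 9825 ± 4354 CPM at 7 weeks (SD), a log2 fold change of 1.21 ± 0.36 that did not pass after removal (0.75 ± 0.27, adjusted p = 0.0605). Dppa3, which protects the maternal methylome, was higher by 0.83 ± 0.23 as measured, and was at 0.32 ± 0.16 (adjusted p = 0.168) after removal. Neither H1f8 nor Dppa3 passed without 7-week sample 1.

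On the other side, Ctcf, the insulator protein of chromatin loops, had 35.6 to 227 CPM at 6 months (median 72.3), against 506, 237, 233, 234 and 175 CPM at 7 weeks. It fell by 1.60 ± 0.35 on the log2 scale, and by 1.47 ± 0.32 with the trend removed. Smarca4, the BAF ATPase, fell by 0.96 ± 0.24 as measured, and was at -0.42 ± 0.21 (adjusted p = 0.173) after removal. Zbed3, which averaged 14500 CPM at 6 months and 17365 CPM at 7 weeks, had a log2 fold change of -0.26 ± 0.22 as measured and passed only with the trend removed (-0.58 ± 0.17, adjusted p = 0.0253).

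The kinases and cyclins that drive meiotic maturation were higher at 6 months in part. Of 24 listed genes 6 were higher and 1 lower as measured, and 7 and 1 with the trend removed, with medians of 0.45 and 0.26. Mapk3, the kinase also named ERK1, had 58.5 to 164 CPM at 6 months (median 111), against 25.4, 39.0, 32.5, 29.9 and 41.3 CPM at 7 weeks. It was higher by 1.77 ± 0.24 with no overlap, and by 1.43 ± 0.21 with the trend removed. Mos, the kinase upstream of it that holds the egg in metaphase, averaged 2578 ± 921 CPM at 6 months and 1065 ± 472 CPM at 7 weeks (SD), a log2 fold change of 1.28 ± 0.34. The cyclins Ccnb1 and Ccnb2 were higher by 0.94 ± 0.28 and 1.02 ± 0.24, and by 0.70 and 0.65 after removal; the Ccnb1 call did not hold without 7-week sample 1 or 2. Cdc25a, a phosphatase that activates cyclin-dependent kinases, fell by 1.17 ± 0.25, and by 1.05 ± 0.23 after removal.

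Of 26 genes of the spindle and its checkpoint, 6 were higher (23.1%) and 4 lower (15.4%) as measured. After removal 5 were higher (19.2%) and 2 lower (7.69%). The shares of all tested genes were 10.8% and 11.2% as measured, and 8.41% and 6.68% after removal. Bub3, a checkpoint protein at kinetochores, had 190 to 505 CPM at 6 months (median 360), against 48.8, 98.4, 114, 138 and 131 CPM at 7 weeks. The groups did not overlap, and it was higher by 1.74 ± 0.26 as measured and 1.91 ± 0.28 with the trend removed. Aurkb, the kinase of the chromosomal passenger complex, was higher by 1.83 ± 0.41, while Incenp and Haspin, a scaffold and a kinase that help place that complex, fell by 0.67 ± 0.20 and 0.53 ± 0.16. The long kinetochore genes Cenpe and Cenpf fell by 0.85 ± 0.21 and 0.97 ± 0.25 as measured and were at -0.23 ± 0.14 and -0.25 ± 0.18 with the trend removed, neither of which passed. Bub1b, another checkpoint kinase family member, had a log2 fold change of -0.24 ± 0.16 (adjusted p = 0.292) as measured and -0.13 ± 0.14 after removal.

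Cohesin, the ring that holds sister chromatids together, had 5 of 18 listed genes lower and 1 higher as measured, and 2 lower and 1 higher with the trend removed. Nipbl, which loads the ring on DNA, had 61.3 to 321 CPM at 6 months (median 130), against 685, 347, 492, 415 and 357 CPM at 7 weeks. It fell by 1.52 ± 0.29 with no overlap, and by 0.91 ± 0.20 after removal. Wapl, which releases the ring, fell by 1.21 ± 0.33 and by 0.78 ± 0.24 after removal, and Pds5a by 1.27 ± 0.39 as measured, with -0.64 ± 0.33 (adjusted p = 0.196) after removal; the Pds5a call did not hold without 7-week sample 1 or 3. Pttg1, the securin that restrains separase, was higher by 0.92 ± 0.23 as measured, and was at 0.53 ± 0.20 (adjusted p = 0.0706) after removal. Smc3, a ring subunit, passed only with the trend removed (0.82 ± 0.21 higher).

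Of 21 genes of fertilization, egg activation and cortical actin, 6 were higher and 1 was lower as measured, and 6 and 0 with the trend removed, with medians of 0.25 and 0.22. Cd9, a membrane protein needed for sperm and egg fusion, had 22.6 to 52.5 CPM at 6 months (median 43.1), against 13.7, 20.2, 17.5, 9.95 and 18.0 CPM at 7 weeks, a log2 fold change of 1.35 ± 0.26 with no overlap. Astl, the protease that hardens the zona after fertilization, averaged 1408 ± 625 CPM at 6 months and 488 ± 131 CPM at 7 weeks (SD) and was higher by 1.53 ± 0.32. Cfl1, an actin-severing protein, and Rab11a, a vesicle GTPase, were higher by 1.12 ± 0.27 and 0.77 ± 0.17, and all 4 passed with the trend removed. Camk2g, the kinase of egg activation, averaged 490 CPM at 6 months and 482 CPM at 7 weeks, a log2 fold change of 0.03 ± 0.22 (adjusted p = 0.948) as measured and 0.13 ± 0.22 after removal.

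Proteasome subunits, the parts of the particle that degrades ubiquitin-tagged proteins, were higher in 13 of 34 and lower in 1, with a median of 0.52. After removal 8 were higher and 1 lower, with a median of 0.18. Psmb2, a subunit of the catalytic core, had 153 to 338 CPM at 6 months (median 273), against 45.6, 68.5, 93.9, 64.9 and 69.1 CPM at 7 weeks. It was higher by 1.96 ± 0.23, and by 1.45 ± 0.21 with the trend removed. Psma2, another core subunit, had 657 to 1853 CPM at 6 months (median 1225), against 271, 364, 454, 335 and 422 CPM at 7 weeks, and was higher by 1.74 ± 0.25 and 1.63 ± 0.22. Psma5 was higher by 1.95 ± 0.28, and Psmd5, an assembly factor of the regulatory particle, by 1.15 ± 0.23 and by 1.43 ± 0.25 after removal, all with no overlap. Psma7, also of the core, was higher by 0.82 ± 0.24 as measured, a call that did not hold without 7-week sample 1, 3 or 4, and was at 0.40 ± 0.19 (adjusted p = 0.149) after removal. Psmd3, of the regulatory particle, was the member that fell, by 0.72 ± 0.22.

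Nuclear genes of oxidative phosphorylation gave 15 of 72 higher and 2 lower, with a median of 0.21. With the trend removed 7 were higher and 5 lower and the median was -0.17, so the balance of this list of short transcripts, with a median length of 1186 bases, depends on the trend. Ndufa4, a subunit of the cytochrome oxidase complex, had 130 to 447 CPM at 6 months (median 269), against 39.1, 33.4, 78.1, 61.2 and 50.8 CPM at 7 weeks. It was higher by 2.51 ± 0.29, and by 2.06 ± 0.28 after removal. Ndufa1 and Ndufa11, of complex I, were higher by 1.79 ± 0.27 and 2.18 ± 0.34, Sdhd, of complex II, by 1.62 ± 0.31, and Uqcrc2, of complex III, by 1.53 ± 0.37, and these passed in both fits; Ndufa1 was higher by 1.19 ± 0.23 after removal. Atp5b, of the ATP synthase, had a log2 fold change of 0.82 ± 0.31 as measured (adjusted p = 0.0576) and 0.48 ± 0.24 after removal, neither of which passed. Cox4i1, of complex IV, fell by 1.25 ± 0.37 and by 1.83 ± 0.39 after removal.

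The 40 tested genes of cytosolic ribosomal proteins had 3 higher, or 7.5%, and 0 lower as measured (edgeR; 6 and 1 at an unadjusted p under 0.05). That share of higher genes is under the 10.8% of all tested genes. With the trend removed 0 were higher and 1 lower (1 and 10 unadjusted), and the median was 0.11 as measured and -0.37 after removal, a change of direction. Rpl11, Rpl32 and Rps25 were the higher ones, by 1.30, 0.98 and 0.97, and were at 0.77, 0.44 and 0.52 after removal, and Rps9 passed after removal only, at -1.77 ± 0.51. Rpl11 kept its call without each library in turn; Rpl32 lost it without 7-week sample 3, 4 or 5 and Rps25 without any one of the 5 or without 6-month sample 3, 4, 7 or 11. Pseudogene copies make counts of these genes uncertain. Rpl4 and Rpl17 had log2 fold changes of 0.12 ± 0.26 and 0.98 ± 0.39 as measured and -0.27 ± 0.19 and 0.52 ± 0.31 after removal, none of which passed.

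Antioxidant and glutathione genes were higher in 6 of 29 and lower in 0 (2 at an unadjusted p under 0.05), and in 4 after removal. Prdx1, a peroxiredoxin that reduces hydrogen peroxide, had 1490 to 3920 CPM at 6 months (median 2145), against 473, 903, 986, 951 and 1112 CPM at 7 weeks. It was higher by 1.42 ± 0.25 with no overlap, and by 1.17 ± 0.20 with the trend removed. Glrx, a glutaredoxin, Hmox2, a haem oxygenase, and Sod2, the superoxide dismutase of mitochondria, were higher by 1.41 ± 0.32, 1.23 ± 0.30 and 0.85 ± 0.26, and by 1.65, 0.82 and 1.30 after removal; the Sod2 call did not hold without 7-week sample 1 or 3. Prdx2 had a log2 fold change of 0.19 ± 0.27 (adjusted p = 0.657) as measured and of -0.19 (adjusted p = 0.571) after removal.

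Enzymes and remodellers of chromatin held the most genes that fell among 29 lists: 22 of 45 were lower and 1, Dnmt3l, was higher, with a median of -0.90. After removal 13 were lower and 3 higher, with a median of -0.45; the median transcript length of the list is 5921 bases. Kmt2c, a partner methyltransferase of Kmt2d, had 71.3 to 400 CPM at 6 months (median 180), against 945, 552, 752, 507 and 535 CPM at 7 weeks, and fell by 1.58 ± 0.28 (edgeR adjusted p = 0.00113) and by 0.89 ± 0.19 after removal. Tet3, the enzyme that oxidises methylated DNA in the zygote, had 219 to 1110 CPM at 6 months (median 524), against 2062, 1158, 1599, 1165 and 1370 CPM at 7 weeks. It fell by 1.33 ± 0.28, and by 0.69 ± 0.19 after removal. In both Kmt2c and Tet3 no 6-month library reached a 7-week library. Arid1a, a BAF subunit, fell by 1.27 ± 0.24, and Atrx, a remodeller of heterochromatin, by 1.18 ± 0.28, with overlapping groups in both. After removal Arid1a was at -0.74 ± 0.20 and passed, and Atrx was at -0.45 ± 0.19 (adjusted p = 0.114).

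Genes of maternal mRNA decay and translation control were lower in 13 of 40 and higher in 4, and after removal in 7 and 2. Dcp2, the decapping enzyme, had 53.7 to 121 CPM at 6 months (median 79.2), against 137, 163, 144, 196 and 125 CPM at 7 weeks. It fell by 0.87 ± 0.19 with no overlap, and was at -0.25 ± 0.20 (adjusted p = 0.428) after removal. Cpeb3, a cytoplasmic polyadenylation element binding protein, and Ythdc1, a nuclear reader of methylated RNA, fell by 1.62 ± 0.39 and 1.48 ± 0.35, and by 1.20 and 0.98 after removal, where both passed. On the other side Pabpc1l, the poly(A)-binding protein of oocytes, rose by 1.49 ± 0.33 and Dazl, a translational activator, by 0.77 ± 0.24. Btg4, the adaptor that brings the deadenylase to maternal mRNA, averaged 7733 ± 2517 CPM at 6 months and 4191 ± 1427 CPM at 7 weeks (SD) and rose by 0.88 ± 0.29 as measured, with 0.48 ± 0.21 (adjusted p = 0.118) after removal. The calls of Dazl and Btg4 did not hold without 7-week sample 1, 2 or 3, each in turn, and that of Btg4 also without 6-month sample 4.

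Insulin, PI3K and mTOR signalling, which controls the awakening of dormant follicles, had 9 of 22 genes lower and 0 higher (1 at an unadjusted p under 0.05), with a median of -0.68 and a median length of 6536 bases. After removal 3 were lower and 1 higher, with a median of -0.23. Pik3r1, the regulatory subunit of PI3K, fell by 0.79 ± 0.21 with no overlap, and was at -0.26 ± 0.18 after removal. Gsk3a, a kinase inhibited by phosphorylation downstream of insulin, fell by 1.52 ± 0.39 and passed in both fits. Foxo1 fell by 0.80 ± 0.26 as measured and was at -0.24 ± 0.18 after removal, where it did not pass; as measured its call was lost without 7-week sample 1 or 3 or without 6-month sample 7, 9, 10 or 11. Deptor, an inhibitor of mTOR, had a log2 fold change of -0.12 ± 0.27 (adjusted p = 0.787) as measured and 0.51 ± 0.34 (adjusted p = 0.33) after removal.

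Of 12 hormone receptor genes 5 were lower and 1 higher as measured, and 2 and 1 after removal. Igf1r, the receptor for insulin-like growth factors, had 3.56 to 10.3 CPM at 6 months (median 5.52), against 21.0, 20.2, 12.1, 14.0 and 13.9 CPM at 7 weeks; it fell by 1.41 ± 0.31 with no overlap and was at -0.72 ± 0.29 (adjusted p = 0.097) after removal. Prlr, the prolactin receptor, fell by 0.86 ± 0.24 as measured, and was at -0.19 ± 0.19 after removal, where it did not pass. Rxra, a partner of nuclear receptors, fell by 1.86 ± 0.57 as measured, a call lost without 7-week sample 1 or 2 and after removal (-1.46 ± 0.55, adjusted p = 0.0748). Pgrmc1, a membrane haem-binding protein named for progesterone, was higher by 1.21 ± 0.30 and by 0.86 ± 0.25 after removal.

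Of 12 immediate early and stress genes 3 were lower, and 0 higher (0 at an unadjusted p under 0.05 also), in both fits, and the median was -0.94 as measured and -1.23 after removal. Egr1, a transcription factor induced by growth signals, had 11.4 to 20.9 CPM at 6 months (median 18.0), against 25.4, 33.4, 40.7, 29.5 and 32.1 CPM at 7 weeks. It fell by 0.93 ± 0.22 with no overlap, and by 0.67 ± 0.20 after removal. Fosb and Klf4 fell by 1.88 ± 0.48 and 1.18 ± 0.38, calls lost without 7-week sample 1 for both and without sample 4 for Klf4. Fos, at 1.85 CPM at 6 months and 4.44 CPM at 7 weeks, and Dusp1, at 243 and 176 CPM in the same order of ages, did not pass.

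Nuclear pore and transport genes were higher in 9 of 27 and lower in 3, and after removal in 7 and 1, with medians of 0.23 and 0.43. Nup35, of the inner ring of the pore, had 290 to 694 CPM at 6 months (median 503), against 187, 208, 249, 266 and 247 CPM at 7 weeks, and was higher by 1.03 ± 0.21 with no overlap. Kpna7, the importin alpha of oocytes, and Ran, the GTPase that powers transport, were higher by 1.29 ± 0.27 and 0.92 ± 0.20, and Nup50 fell by 1.05 ± 0.21; all 4 passed in both fits. Nup88, of the cytoplasmic face of the pore, had a log2 fold change of 0.51 ± 0.25 (adjusted p = 0.136).

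**Figure D4:**
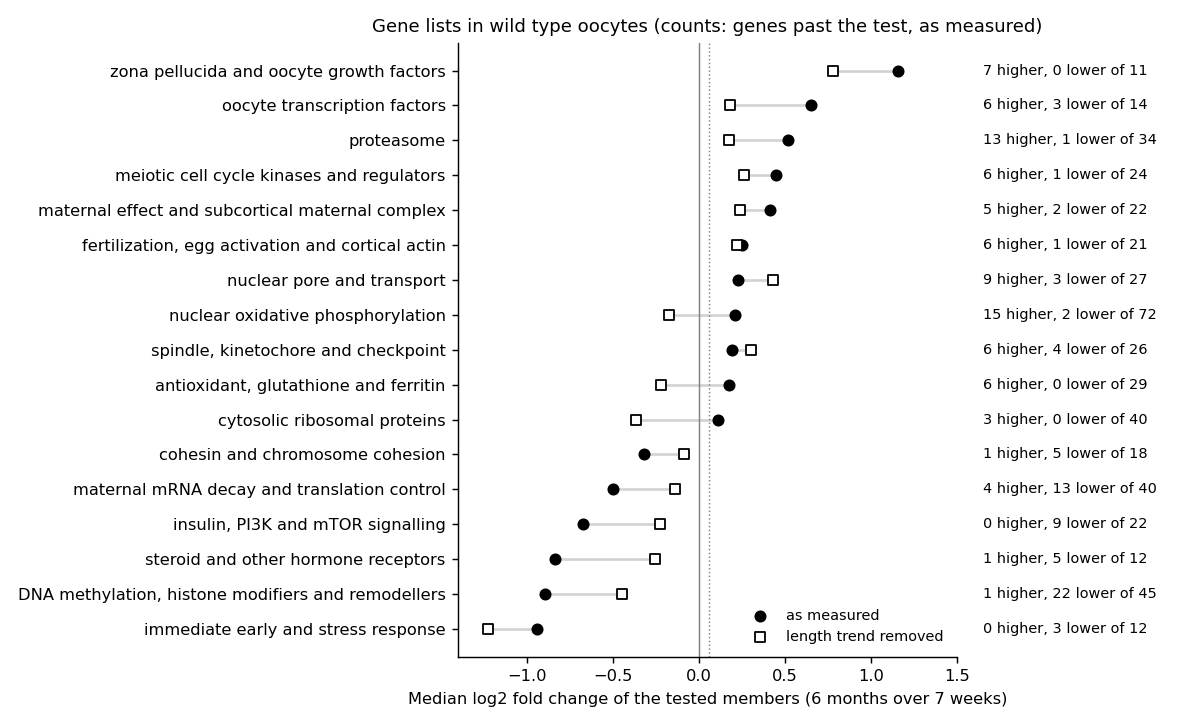
Median log2 fold change of 6 months over 7 weeks (x axis) of the tested genes on each of 17 lists (y axis), as measured (filled circles) and with the length trend removed (open squares). The dotted line is the median of all tested genes, 0.06, and the counts at right are genes past the test as measured. The oxidative phosphorylation, antioxidant and ribosomal lists cross 0 when the trend is removed.

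The Esr2 knockout oocytes gave another set of libraries from the same 2 tables. In 1 model over all 51 oocyte libraries, 782 of 13471 genes differed between 6 months and 7 weeks in knockout oocytes (5.81%), 449 higher (3.33%) and 333 lower (2.47%), and 432 with the length trend removed. Of the 1297 genes that were higher in wild type oocytes, 1275 had a knockout value above 0 and 368 were themselves higher at an adjusted p under 0.05, against 48.2% of all genes with a value above 0. Of 1342 genes that were lower in wild type and measured in the model, 1329 had a knockout value below 0 and 262 passed. Of all genes, 51.8% had a value below 0. None that passed in wild type passed in the opposite direction in the knockout. Over 11975 genes the log2 fold changes of both genotypes correlated at a Spearman rho of 0.76, and at 0.70 with the trend removed; the tables, and so the trend, are shared. The difference between the age effects of knockout and wild type passed for 0 genes by edgeR (0.0%), with 409 at an unadjusted p under 0.05, so no gene's age effect was shown to differ by genotype.

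**Figure D5:**
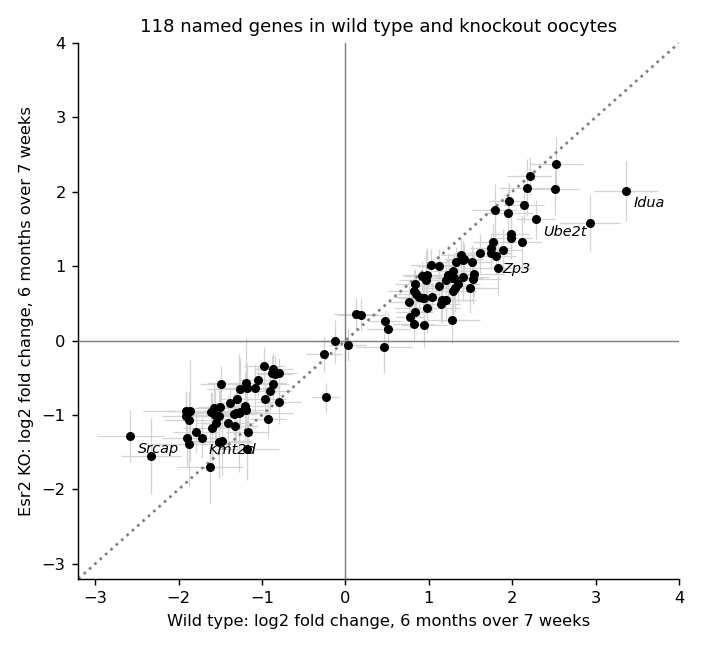
Log2 fold change of 6 months over 7 weeks in Esr2 knockout oocytes (y axis, model of all 51 oocyte libraries) against that in wild type oocytes (x axis, 16 libraries) for 118 named genes. Bars are standard errors and the dotted line marks equal values. All 105 of them that passed in wild type have the same sign in the knockout, and 48 passed there too.

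Among the leading genes, Gstm5 was higher by 2.21 ± 0.25 in knockout oocytes (adjusted p = 7.61e-08), Psmb2 by 1.88 ± 0.24, H3f3a by 1.82 ± 0.24 and Zp3 by 1.13 ± 0.25. Kmt2d, Tet3 and Egr1 fell in the knockout by 1.31 ± 0.27, 1.15 ± 0.26 and 1.05 ± 0.27. After removal Gstm5, Psmb2, H3f3a, Zp3 and Tet3 passed in the knockout, with 1.86, 1.51, 1.78, 0.84 and -0.69, while Kmt2d at -0.90 ± 0.30 (adjusted p = 0.0791) and Egr1 at -0.86 ± 0.27 (adjusted p = 0.0621) did not. Some wild type calls had smaller values there: Mos was at 0.28 ± 0.31, Ccnb1 at 0.21 ± 0.30 and Psma7 at 0.22 ± 0.22, none of which passed.

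Values against the 12 wild type libraries of 4 weeks, from the same model, show which of the 2 ages stood apart for a gene; these contrasts share libraries with the main one and are set side by side only. For 6 months against 4 weeks 2075 genes passed (15.4%), 1119 higher (8.31%) and 956 lower (7.1%). For 7 weeks against 4 weeks 111 passed (0.824%), 33 higher (0.245%) and 78 lower (0.579%). These contrasts set 11 and 5 libraries against 12, so their numbers of calls cannot be compared directly. At an unadjusted p under 0.05 (edgeR) there were 3772 genes for 6 months and 3100 for 7 weeks. Kmt2d was at -1.73 ± 0.19 for 6 months against 4 weeks (adjusted p = 5.08e-09) and at -0.02 ± 0.23 for 7 weeks against 4 weeks (adjusted p = 0.964). Ube2t was at 1.60 ± 0.21 (adjusted p = 2.18e-07) and -0.69 ± 0.27 (adjusted p = 0.119) in the same order. Smarcc2 was the reverse case, at -0.29 ± 0.26 for 6 months (adjusted p = 0.501) and 1.55 ± 0.31 for 7 weeks (adjusted p = 0.0284). Gdf9 was at -0.05 ± 0.23 for 6 months (adjusted p = 0.907) and -1.22 ± 0.31 for 7 weeks (adjusted p = 0.0422), and Zp3 at 0.93 ± 0.19 (adjusted p = 0.000416) and -0.90 ± 0.26 (adjusted p = 0.0544). By list, the chromatin enzymes and remodellers had a median of -0.29 for 6 months and 0.53 for 7 weeks against 4 weeks, unlike Kmt2d. The zona pellucida and growth factor list had medians of 0.03 and -0.36 in the same order. By length, the longest bin of genes had a median of -0.27 for 6 months and 0.35 for 7 weeks against 4 weeks, and the shortest bin 0.55 and -0.04.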

How the data were processed

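The deposited tables held the authors' estimated counts per gene, of which 19.1% were not whole numbers; per the submitters' processing notes STAR, Partek and DESeq2 were used with mm10, and versions and annotation are not given in the sources used here. Estimated counts were rounded, and the 15414 gene names shared by the 6-month (16655 rows) and 7-week (16067 rows) tables were kept. Ages were compared with edgeR 4.0.16 in R 4.3.3 (low-count filter, TMM scaling, robust quasi-likelihood test, Benjamini-Hochberg adjustment). Lengths are those of the longest transcript in GENCODE vM21; the length trend was removed as a natural spline with 5 degrees of freedom per library, entered as offsets. Library measures were compared by exact permutation over 4368 splits. The script was tested on simulated counts. With no length tilt put in, 3.19% of calls were false in both fits. With a tilt of 0.4 on the log2 scale per SD of log length, 72.0% of calls as measured were false. With the trend removed 2.94% were. That tilt was a chosen value, the same for every library of an age, not one fitted to these data. True changes were put into a small share of genes. The false shares follow from these settings and are not estimates for the real calls. Of true 2-fold changes, 24.7% were recovered in both fits with no tilt. With the tilt, 34.0% were recovered as measured and 22.7% with the trend removed.

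The samples and gene lists were chosen with earlier results of these data known. Genes named are the 12 with the smallest p in each direction, the 8 with the smallest p in each direction with the trend removed, and from each described list those with the smallest p or highest level; Zp1, Zp2, Incenp, Haspin, Psmd3 and Cox4i1 were added after their values were seen, and some genes the rule names are not reported here. Alternatives covered scaling, filters, DESeq2 1.42.0, limma 3.58.1 (voom), GC content, marker covariates, a replicate block and leaving out each library. The closest pair of libraries differed by a chi-square of 10.6 per gene, so none was counted as a duplicate. By the same measure 6-month samples 2 and 5 lay nearest to each other (23.2), then to 7-week sample 2 (34.8 and 25.3). Their next nearest 6-month library was sample 8 (54.8 and 50.9).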

Additional observations from a re-analysis of the deposited data

Results flagged for a closer look

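In groups of 5, a value is listed here when its gap to the nearest library is a large share of the whole range (Dixon's test); chance lists a small share of all groups tested, and no cause was tested. Most listed values came from 7-week sample 1, the library with the fewest genes with a count of its age, at 12855. In that library Pptc7 (293 CPM), Baz2a (534 CPM), Smarcc2 (53.3 CPM), Ctcf (506 CPM), Smarca4 (215 CPM), Cenpe (1149 CPM) and Cenpf (1617 CPM) stood above the other 7-week libraries. So did Atrx (2395 CPM), Ythdc1 (272 CPM), Cpeb3 (201 CPM), Gsk3a (34.3 CPM), Nup50 (451 CPM), Rps9 (115 CPM) and Tm2d1 (57.3 CPM), while Oosp1 (1381 CPM) and Dazl (412 CPM) stood below them.

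Of the other 7-week libraries, sample 2 stood above the rest in the summed level of Inha, Inhba, Kitl and Cyp11a1 (345 CPM) and in Sdhd (60.9 CPM). Sample 3 stood above the rest in Rpl11 (7.60 CPM), sample 4 in Prdx2 (1096 CPM), and sample 5 in Dusp10 (47.4 CPM) and Dpys (15.7 CPM).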

How the results depend on the processing

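Against 2640 genes that passed, 3452 passed by DESeq2 (2621 of the 2640 among them), 3023 by limma voom (2454), 2697 with relative log expression scaling (2617), 2390 with no low-count filter (2310), 2792 with a stricter filter and 2610 with a GC trend removed. With length and GC trends removed 1654 passed, with the summed granulosa list as a covariate 867, and with 4 granulosa markers 177; the cause was not tested. Leaving out each library gave 1502 (without 7-week sample 1) to 3757 (without 6-month sample 2) genes, and with the length trend removed 1021 to 2724 (the same libraries). Without the 2 libraries with the fewest genes, chosen after seeing the data, 2718 passed, and 1912 with the trend removed. The length tilt difference ranged from -0.53 to -0.45 over leave-outs, and that of summed granulosa markers from 0.36 to 0.67. Of the 105 named genes that passed, 79 kept their call with the length trend removed, 71 with length and GC removed, 65 with the granulosa list covariate, and 88 without 7-week sample 1; none was called in the opposite direction.

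Sample numbers do not pair the libraries: deviations of same-numbered libraries correlated at -0.29, -0.07, 0.01, 0.21 and -0.37, and only sample 4 had its own number as best partner. With the replicate block, on samples 1 to 5 of each age, 49 genes passed, and 29 with the length trend removed too. The same libraries without the block gave 266. How far the lower numbers come from fewer libraries, or from which ones were kept, was not tested.

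Signs turned only in named genes that had not passed. Esr2 was at -0.085 (replicate block), -0.048 (block and length) and -0.14 (granulosa list). Camk2g was at -0.012 (no filter), -0.25 (block), -0.13 (block and length), -0.39 (granulosa list), -0.064 (without 2 libraries) and -0.14 to 0.061 over leave-outs. Rpl4 was at -0.27 (length), -0.11 (block and length), -0.39 (length and GC), -0.11 (granulosa list) and -0.042 to 0.21 over leave-outs. Prdx2 was at -0.19, -0.14 and -0.26 with length removed alone, with the block and with GC, and at -0.045 and -0.056 with the granulosa list and 4 markers. Deptor was at 0.51, 0.10 and 0.43 in the same 3 length fits and at -0.36 to 0.030 over leave-outs, and Dusp1 at -0.0045 (block and length) and -0.12 (granulosa list).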

Other observations

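Counts for 4 lists not described above are read against 10.8% of all tested genes higher and 11.2% lower. Pre-mRNA splicing genes had 10 of 60 higher and 9 lower, and DNA repair genes 2 of 33 higher and 5 lower. Genes of glycolysis, pyruvate use and the citric acid cycle had 4 of 31 higher (12.9%, near the share of all genes) and 0 lower, and mitochondrial ribosomal proteins 3 of 15 higher and 0 lower (edgeR, adjusted p under 0.05).

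Genes listed in 1 table only could not be compared. The 653 names found only in the 7-week table reached mean counts of 87 in wild type oocytes, the highest being Krt18, a keratin, while the 1241 found only in the 6-month table reached 11.5. Fst and Hsd17b1, genes known from granulosa cells, were among those only in the 7-week table, with mean counts of 34.6 and 22.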
